A study of Homo sapiens with 15 samples.

Results

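The keratins of simple epithelia are described here through 5 genes, KRT7, KRT8, KRT18, KRT19 and KRT80, in cells with and without ANGPTL4. They are 5 of the 17237 genes listed in either of the 2 expression tables, and all 5 are in both. The genes were chosen by their symbols, and the choice was made with their values in knockout and wild type (WT) cells already known. Their differences between these cells are therefore given as a description, with no test.

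Messenger RNA of 2 human clear cell renal cell carcinoma (ccRCC) lines was sequenced to see which transcripts differ once ANGPTL4, a secreted inhibitor of lipoprotein lipase, is lost. CAKi-1, which carries wild-type VHL, was represented by 4 WT and 5 knockout libraries, and 786O, which carries mutant VHL, by 3 WT and 3 knockout libraries. Knockout cells of both lines (A4KO) had been given Cas9 and guide RNA against ANGPTL4, and clones that had lost the transcript were then combined, so each A4KO line is a pool of clones. The 786O WT cells were pooled clones that had kept it. For CAKi-1 the sources differ on whether the WT cells were such a pool or the unedited parental line. All cells were grown without further treatment in serum-containing medium and collected at about 70% confluency. No source says that libraries of a group came from separate cultures, so the spread between them, and every p-value based on it, may be technical.

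Keratins form the intermediate filaments of epithelial cells. A filament is built from equal parts of type I and type II proteins, which pair as heterodimers, and a keratin without a partner is degraded. KRT8 (type II) and KRT18 (type I) are the founding pair of simple epithelia, are present in tubular cells of the kidney, and are widely used to recognise carcinomas. KRT7 (type II) and KRT19 (type I) accompany them in ducts and in many tumours, and KRT19 is an unusually short keratin that almost lacks a tail domain. KRT80 is a type II keratin of both simple and stratified epithelia, found at cell margins near desmosomes, and is not one of the classic simple epithelial set.

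The values are TPM, a measure of transcript abundance that here sums to between 961437 and 973887 in each library, and are corrected for transcript length, so levels can be set beside each other between genes of a library. The tables of the lines had been normalized separately, so no test was made between lines, and the number of reads behind each value is unknown. In bulk RNA, fewer cells that make a keratin and less keratin RNA per cell cannot be told apart. ANGPTL4 itself was 79.2 ± 7.06 TPM (SD, n = 4) in CAKi-1 WT and 4.47 ± 2.20 TPM (n = 5) in A4KO libraries, and 18.8 ± 1.58 TPM in 786O WT and 2.07 ± 0.185 TPM in A4KO libraries (n = 3 each). The CAKi-1 A4KO libraries were not alike. In them ANGPTL4 was 7.26 and 6.47 TPM in replicates 1 and 4 and 2.87 to 2.90 TPM in replicates 2, 3 and 5. Across 12742 genes, replicates 1 and 4 differed from each other by a root mean square of 0.179 on the log2 scale and replicates 2, 3 and 5 by 0.183 to 0.212, whereas pairs that crossed these sets differed by 0.343 to 0.404. CAKi-1 values of the 5 keratins are therefore also given over replicates 2, 3 and 5, as are those of other genes where this ends a call or moves the value by over 1.5 times. In the WT of that line replicate 4 lay farthest from the rest, at 0.233 to 0.315.

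WT cells of both lines held KRT8, KRT18 and KRT19, the markers of simple epithelium, among their more abundant transcripts. In WT CAKi-1 libraries KRT8 ranked between 92 and 135 among 16296 genes, and in 786O between 204 and 214 among 16188. KRT7 was a low transcript in both lines. The 5 genes made up 97.0% ± 0.415 of all keratin TPM in CAKi-1 WT libraries and 93.1% ± 0.101 in 786O WT libraries, where the pseudogene KRT223P was counted. Of 23 genes of stratified and cornified epithelium, 5 were measured in CAKi-1 and 4 in 786O, and 3 reached a mean of 1 TPM in a group in each line. The markers of renal epithelium and clear cell carcinoma summed to 233 to 287 TPM in CAKi-1 WT and 216 to 279 TPM in A4KO libraries, with PAX2 and CA9 absent from that table. In 786O this sum was 629 to 655 TPM in WT and 342 to 350 TPM in A4KO libraries. These sums held changes in both directions. In CAKi-1, CDH2 fell from 70.2 to 27.3 TPM (limma adjusted p = 1.6e-06) and CDH6 rose from 8.89 to 17.1 TPM (limma adjusted p = 0.00157), and in 786O, CDH6 fell from 213 to 43.8 TPM (limma adjusted p = 2.5e-07) and PAX2 rose from 11.2 to 41.0 TPM (limma adjusted p = 3.2e-06).

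KRT80, KRT7 and KRT8 lie in the type II cluster on chromosome 12, and KRT18 is the only type I keratin gene beside them, the rest being on chromosome 17. In GENCODE release 44 on hg38, KRT80 (ENSG00000167767.14) occupies chromosome 12 from 52168996 to 52192014 on the minus strand, and KRT7 (ENSG00000135480.17) starts 40506 bases beyond it and runs from 52232520 to 52252186 on the plus strand. KRT8 (ENSG00000170421.13, 52897187 to 52949954, minus) and KRT18 (ENSG00000111057.11, 52948871 to 52952906, plus) lie 645001 bases from KRT7 and point away from each other. Their annotated gene models overlap, because some KRT8 transcripts start far upstream, although the start sites of the canonical transcripts are 44042 bases apart. KRT19 (ENSG00000171345.13) has 6 exons and lies on chromosome 17 from 41523617 to 41528308 on the minus strand. KRT8 and KRT18 also have many processed pseudogenes, and the strand of the libraries is not stated, so their reads could in part be shared with other transcripts. The rows of these pseudogenes, 11 in CAKi-1 and 12 in 786O, together held 7.75 to 8.86 TPM in CAKi-1 WT, 8.82 to 10.5 TPM in CAKi-1 A4KO, 6.18 to 7.25 TPM in 786O WT and 7.29 to 7.50 TPM in 786O A4KO libraries. In every group these sums were far below the level of either gene.

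The upstream sequence of KRT8 is shown because KRT8 and KRT18 had like patterns over the libraries, described further on, and because it is the only one of the 5 genes in the RefSeq promoter table used here. It is the 250 bases before the RefSeq start on GRCh38.p14, chr12:52926470-52926719, minus strand, which is 21393 bases upstream of the start of the GENCODE canonical transcript. Capitals mark matches to the E-box CANNTG.
KRT8 upstream: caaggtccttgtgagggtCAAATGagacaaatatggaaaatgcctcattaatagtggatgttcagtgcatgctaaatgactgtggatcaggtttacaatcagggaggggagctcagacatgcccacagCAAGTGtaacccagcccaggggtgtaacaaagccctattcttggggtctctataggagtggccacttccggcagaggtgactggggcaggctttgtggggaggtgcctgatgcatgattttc
The letters were searched on both strands for 5 motifs. The E-box matched at 2 places, which begin 232 and 122 bases before the start, and 62.2% of 27305 promoters hold at least 1. The window held no match to the TATA box TATAAA, which 11.1% of promoters hold, or to the GC box GGGCGG, which 42.3% hold. It held none either to the CCAAT box, which is in 33.0% of promoters, or to the AP-1 site TGANTCA, which is in 6.60%.

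KRT8, the main type II keratin of these cells, was lower in every A4KO library than in every WT library of its line. In CAKi-1 WT it stood at 1702, 1643, 1486 and 1223 TPM in replicates 1 to 4, and in A4KO at 265, 493, 566, 305 and 498 TPM in replicates 1 to 5. The A4KO libraries fell into a low pair, replicates 1 and 4, and a higher trio, and no value overlapped the WT. The group means were 1513 ± 214 TPM (SD, n = 4) and 425 ± 132 TPM (n = 5), a ratio of 3.56 of WT over A4KO and a log2 fold change of −1.88 with a standard error (SE) of 0.231. Over replicates 2, 3 and 5 alone the A4KO mean was 519 ± 40.8 TPM (n = 3), and WT stood 2.92 times higher. In 786O, KRT8 was 609, 645 and 632 TPM in WT and 455, 449 and 465 TPM in A4KO libraries. The groups were again apart, but the difference was small, with means of 629 ± 18.3 and 456 ± 7.69 TPM (n = 3 each) and a log2 fold change of −0.46 (SE 0.0384).

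KRT18, the type I partner of KRT8, followed it in CAKi-1 and hardly differed in 786O. The CAKi-1 WT libraries held 1175, 1072, 971 and 762 TPM and the A4KO libraries 223, 383, 451, 259 and 396 TPM. Replicates 1 and 4 were again the lowest A4KO libraries, and WT replicate 4 the lowest WT library, still above all A4KO values. The means were 995 ± 176 TPM (n = 4) and 342 ± 97.0 TPM (n = 5), with a log2 fold change of −1.57 (SE 0.220), and over replicates 2, 3 and 5 the log2 fold change was −1.26. In 786O, KRT18 was 183, 172 and 181 TPM in WT and 160.6, 161.4 and 160.6 TPM in A4KO libraries. The A4KO libraries lay just below the lowest WT library, and the log2 fold change was −0.15 (SE 0.0382), or 10.1% lower by the ratio of means.

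KRT19, the short type I keratin of ducts, differed most of the 5 in both lines. The CAKi-1 WT libraries held 259, 256, 207 and 175 TPM, whereas the A4KO libraries held 9.78, 17.5, 16.8, 10.1 and 16.6 TPM. The highest A4KO value lay far below the lowest WT value. The means were 224 ± 40.8 TPM (n = 4) and 14.2 ± 3.86 TPM (n = 5), with a log2 fold change of −3.92 (SE 0.204) and a ratio of 15.8 of WT over A4KO, which was 13.2 over replicates 2, 3 and 5. Among all genes of a library it ranked between 540 and 857 in WT and between 6418 and 8499 in A4KO. In 786O, KRT19 was 397, 396 and 408 TPM in WT and 133, 132 and 136 TPM in A4KO libraries. The groups lay far apart relative to their spread, with means of 401 ± 6.67 and 134 ± 2.10 TPM (n = 3 each), a ratio of 3.00 and a log2 fold change of −1.58 (SE 0.0346).

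KRT7, a type II keratin of glandular and ductal cells, was a low transcript that went opposite ways in the lines. In CAKi-1 it was 9.30, 8.82, 10.0 and 11.1 TPM in WT and 21.8, 13.7, 14.9, 14.4 and 11.3 TPM in A4KO libraries. The groups did not overlap, but the lowest A4KO library lay within 1 TPM of the highest WT library and replicate 1 was well above the rest. The means were 9.81 ± 0.980 TPM (n = 4) and 15.2 ± 3.91 TPM (n = 5), with a log2 fold change of 0.56 (SE 0.155), and of 0.40 over replicates 2, 3 and 5. In 786O, KRT7 was 3.82, 3.84 and 3.78 TPM in WT and 1.34, 1.62 and 1.49 TPM in A4KO libraries, so that here the knockout cells were lower, with a log2 fold change of −0.96 (SE 0.0494). At these levels the size depends on the constant added before the logarithm, and with 0.1 in place of 1 TPM the 786O value was −1.31. Whether the lines differ in their KRT7 response was not tested.

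KRT80, the type II keratin of cell margins, was the member that differed least in CAKi-1. There it was 20.1, 19.4, 17.2 and 14.7 TPM in WT and 14.8, 13.1, 13.8, 14.5 and 14.1 TPM in A4KO libraries. The groups overlapped, because WT replicate 4 lay just under the highest A4KO library. The log2 fold change was −0.32 (SE 0.0865), and −0.36 over replicates 2, 3 and 5. In 786O, KRT80 was 78.0, 72.2 and 73.6 TPM in WT and 56.0, 54.9 and 54.5 TPM in A4KO libraries. These groups were apart, with means of 74.6 ± 3.05 and 55.1 ± 0.798 TPM (n = 3 each) and a log2 fold change of −0.43 (SE 0.0421).

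**Figure D1:**
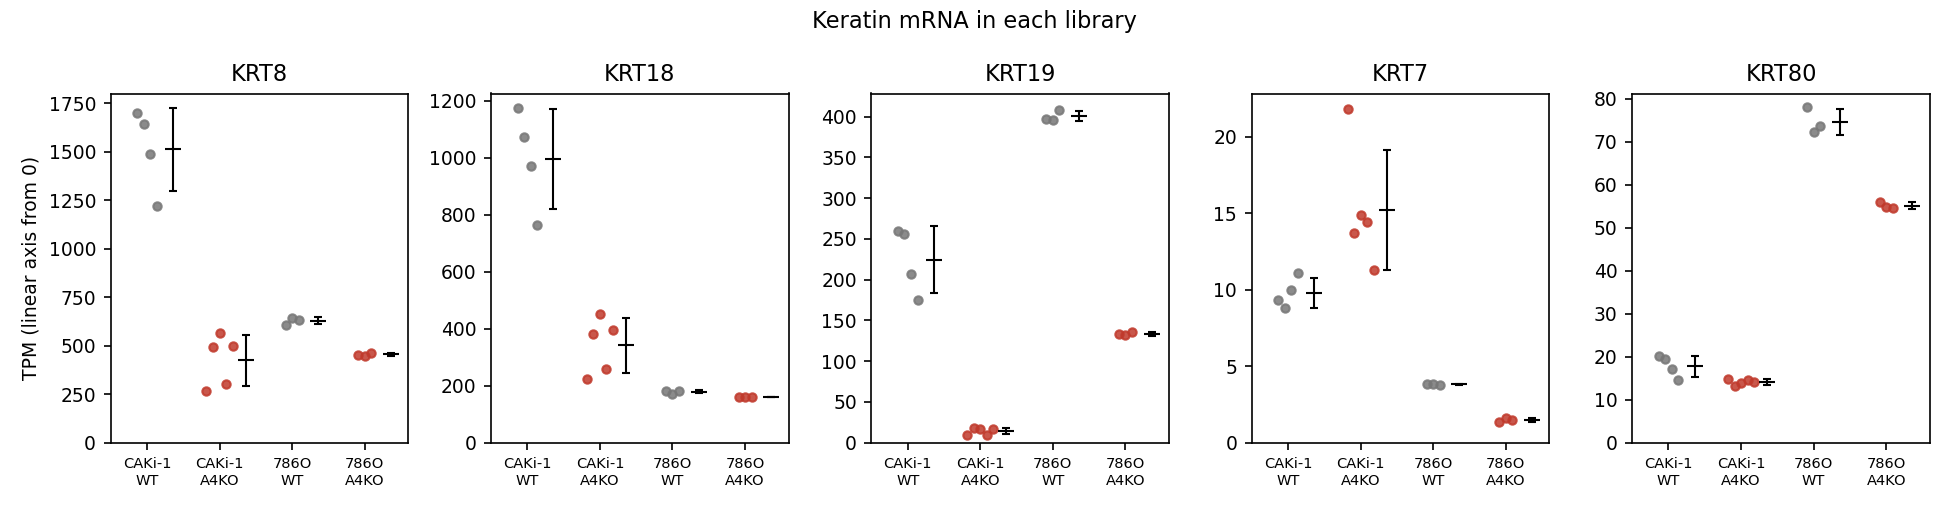
TPM of each keratin in each library, on linear axes that start at 0 and differ between panels. Points are libraries in replicate order (grey, WT; red, A4KO), and the bars beside them are the mean and SD. KRT19 lies between 175 and 259 TPM in CAKi-1 WT and between 9.78 and 17.5 TPM in A4KO cells, KRT7 is higher in A4KO cells of CAKi-1 and lower in those of 786O, and only KRT80 in CAKi-1 overlaps between the groups.

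These differences can be set beside the background of each line, although nothing is read from this for genes whose values were known when they were chosen. With calls defined as a log2 fold change of at least 1 in size and an adjusted p of at most 0.05 by limma, KRT8, KRT18 and KRT19 met the rule as lower in CAKi-1, where 1.12% of all genes did so as lower and 2.21% as higher. In 786O only KRT19 met it, against 5.19% of genes called lower and 2.43% called higher. By adjusted p alone 4 members were lower and 1 higher in CAKi-1, against 21.1% and 17.9% of all genes, and 5 were lower in 786O, against 33.5% of genes lower and 27.5% higher. Groups that did not overlap were seen for 3 members lower and 1 higher in CAKi-1, against 19.8% and 16.1% of genes, and for 5 lower in 786O, against 36.8% lower and 30.1% higher.

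**Figure D2:**
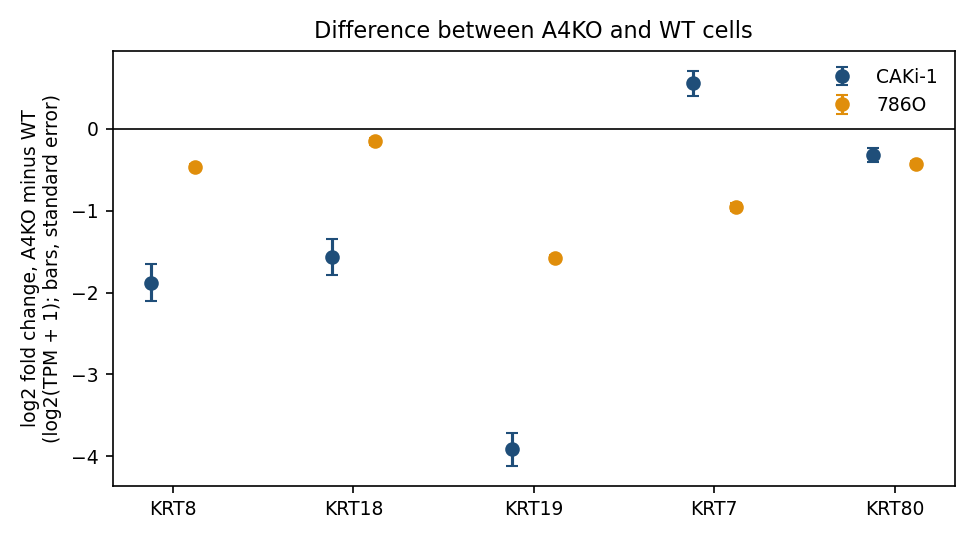
Log2 fold change of A4KO minus WT on the log2(TPM + 1) scale for the 5 keratins in both lines, with bars of 1 standard error. KRT19 has the lowest value in each line (−3.92 in CAKi-1, −1.58 in 786O), KRT8 and KRT18 lie together near −1.88 and −1.57 in CAKi-1, and KRT7 is above 0 in CAKi-1 and below 0 in 786O.

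The order of the keratins by mean level differed between WT and A4KO cells in 786O, and in CAKi-1 only with A4KO replicates 1 and 4 included. In WT CAKi-1 the order was KRT8, KRT18, KRT19, KRT80 and KRT7, and the ranges of neighbouring genes did not overlap except that KRT8 and KRT18 came close, at 1223 TPM for the lowest KRT8 value and 1175 TPM for the highest KRT18 value. In A4KO cells KRT8 (265 to 566 TPM) and KRT18 (223 to 451 TPM) overlapped as groups, although KRT8 was the higher in every library. KRT19 (9.78 to 17.5 TPM), KRT7 (11.3 to 21.8 TPM) and KRT80 (13.1 to 14.8 TPM) overlapped over the 5 libraries. This overlap came from setting replicates 1 and 4, where KRT19 was the lowest of these genes, beside replicates 2, 3 and 5, where it was the highest (16.6 to 17.5 TPM) and lay apart from KRT7 (11.3 to 14.9 TPM) and KRT80 (13.1 to 14.1 TPM). Over replicates 2, 3 and 5 KRT8 (493 to 566 TPM) and KRT18 (383 to 451 TPM) did not overlap either. By the means over these replicates the order was that of WT, with KRT80 (13.6 TPM) and KRT7 (13.3 TPM) overlapping. In WT 786O the order was KRT8, KRT19, KRT18, KRT80 and KRT7, with no overlap between neighbours. In A4KO cells of 786O KRT18 (160.6 to 161.4 TPM) stood above KRT19 (132 to 136 TPM), the reverse of the WT order.

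Since filaments take type I and type II chains in equal parts, the balance of their transcripts was followed in each library as well, first over the 5 genes. In CAKi-1 the summed TPM of KRT7, KRT8 and KRT80 over that of KRT18 and KRT19 was 1.27 ± 0.0523 in WT (n = 4) and 1.28 ± 0.0229 in A4KO libraries (n = 5), with overlapping ranges. The sum of all 5 keratins, in contrast, was 2760 ± 430 TPM in WT and 811 ± 230 TPM in A4KO libraries, or 0.285% and 0.0833% of all TPM, and over A4KO replicates 2, 3 and 5 it was 973 ± 78.3 TPM (n = 3) with a type II to type I ratio of 1.28 ± 0.0168. Over the 5 genes the ratio in CAKi-1 was thus nearly level while the total was much lower. With all other measured keratins added to their type, pseudogenes left out, it was 1.19 ± 0.0369 in WT and 1.04 ± 0.0483 in A4KO libraries of CAKi-1, without overlap, so the level ratio held for the 5 genes alone. Over replicates 2, 3 and 5 this wider ratio was 1.07 ± 0.0233. In 786O the ratio over the 5 genes was 1.22 ± 0.0421 in WT and 1.74 ± 0.0148 in A4KO libraries (n = 3 each), with no overlap, and the total was 1286 ± 13.9 and 807 ± 9.04 TPM. With all measured keratins it was 1.08 ± 0.0369 and 1.28 ± 0.0209. Among the 5 genes the type I side was lowered more, from 579 ± 10.5 to 294 ± 1.76 TPM, than the type II side, from 707 ± 15.3 to 513 ± 7.31 TPM.

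Within each type the make-up also differed. KRT19 gave 18.4% ± 0.745 of type I TPM in CAKi-1 WT and 3.99% ± 0.315 in A4KO libraries (4.00% ± 0.388 over replicates 2, 3 and 5), and 69.1% ± 0.653 and 45.4% ± 0.448 in 786O. WT cells of the lines thus drew on different main type I keratins, KRT18 in CAKi-1 and KRT19 in 786O. The KRT8 to KRT18 ratio was 1.45, 1.53, 1.53 and 1.60 in the CAKi-1 WT libraries and 1.19, 1.29, 1.25, 1.18 and 1.26 in the A4KO libraries. In 786O it was 3.32, 3.75 and 3.49 in WT and 2.83, 2.79 and 2.89 in A4KO libraries. The ratio was lower in A4KO cells of both lines without overlap, and replicates 1 and 4 were again the lowest of the CAKi-1 A4KO libraries. Over replicates 2, 3 and 5 it was 1.27 ± 0.0186 (n = 3), still below the WT range. KRT80 was 1.16% ± 0.0181 of type II TPM in CAKi-1 WT and 3.35% ± 1.18 in A4KO libraries (2.51% ± 0.185 over replicates 2, 3 and 5), whereas in 786O it was 10.6% ± 0.663 and 10.8% ± 0.255.

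**Figure D3:**
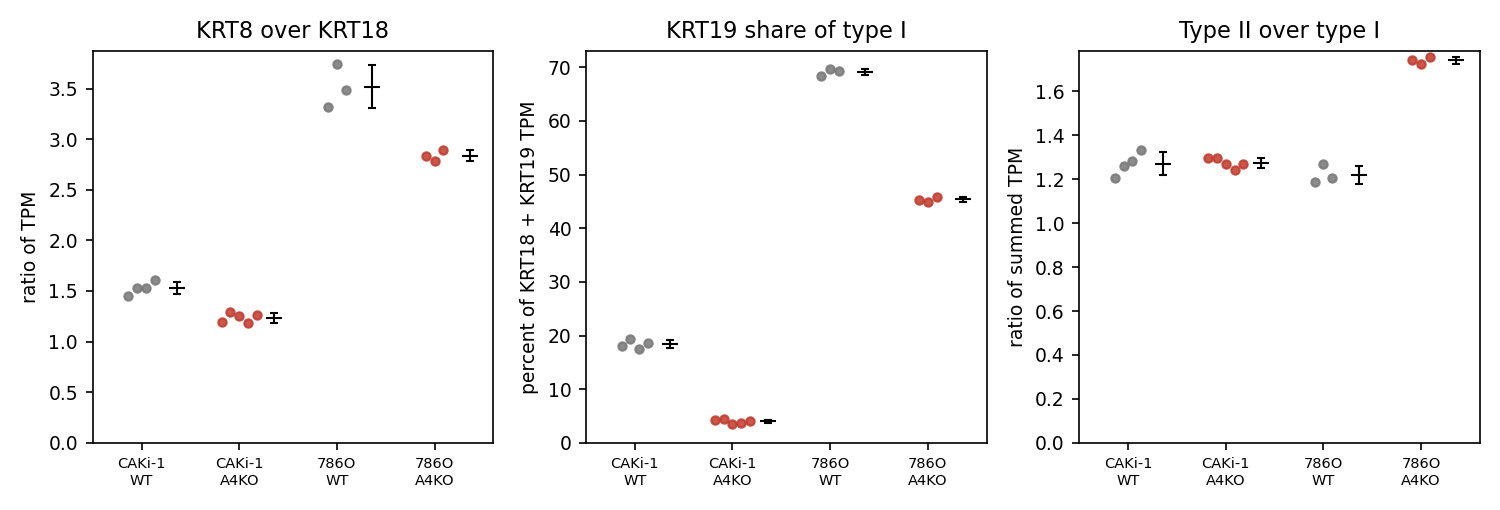
Ratio of KRT8 to KRT18 TPM, share of KRT19 in the TPM of KRT18 and KRT19, and ratio of type II to type I TPM in each library (grey, WT; red, A4KO; bars, mean and SD; axes start at 0). The type II to type I ratio is near 1.27 in both CAKi-1 groups and goes from 1.22 to 1.74 in 786O, and the KRT8 to KRT18 ratio is lower in A4KO cells of both lines.

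The genes with the pattern most like each keratin were found over the 15 libraries, each line centred on its own mean, among 11913 genes with a mean of at least 1 TPM in both lines, by the smallest root mean square difference of log2(TPM + 1). For KRT18 these were ANXA3 (0.119), an annexin, AP1S3 (0.155), a subunit of an adaptor of clathrin-coated vesicles, and KRT8 (0.163). KRT8 was nearest to AP1S3 (0.153), KRT18 (0.163) and CCND1 (0.191), which encodes cyclin D1. KRT8 and KRT18 were thus among each other's 3 nearest genes. The distance grows with the size of the difference between A4KO and WT cells, so it does not compare between keratins. For KRT19 the nearest were CPA4 (0.316), a carboxypeptidase, ANGPTL4 (0.618) and TUBB3 (0.621), a beta tubulin. ANGPTL4 was low in A4KO cells by design, since clones that had lost it were pooled. Among CAKi-1 A4KO libraries it was higher in replicates 1 and 4 (7.26 and 6.47 TPM, the others 2.87 to 2.90 TPM). KRT19 was lower in those replicates (9.78 and 10.1 TPM, the others 16.6 to 17.5 TPM). KRT7 was nearest to LTB4R2 (0.122), ECH1 (0.141) and RAB3D (0.143), and KRT80 to NFRKB (0.0723), TRIM3 (0.0738) and PTPRG (0.0749).

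The nearest gene to KRT19 on its chromosome did not share its pattern in both lines. KRT15, a type I keratin of basal cells that lies 1088 bases away, fell in CAKi-1 from 16.0 ± 0.684 to 9.19 ± 2.02 TPM (log2 fold change −0.77, SE 0.138, limma adjusted p = 0.00246) and rose in 786O from 5.25 ± 0.545 to 7.21 ± 0.439 TPM (0.40, SE 0.0755, adjusted p = 0.00425). EIF1, a translation initiation factor on the other side of KRT19 in CAKi-1, rose by 0.27 on the log2 scale (limma adjusted p = 0.00317). EIF4B, the first measured gene beyond KRT18 at a distance of 53376 bases, rose in CAKi-1 (0.28, limma adjusted p = 0.0297, with 0.16 over replicates 2, 3 and 5) and in 786O (0.11, limma adjusted p = 0.0248), but neither result held up to leaving out single libraries. In CAKi-1 it was lost without WT replicate 1, 2 or 3 or A4KO replicate 1 or 4 (limma adjusted p of up to 0.0798), and in 786O without any library but WT replicate 2 (up to 0.0739). ATG101, next to KRT80 in CAKi-1, did not pass (−0.04, limma adjusted p = 0.803, with 0.10 over replicates 2, 3 and 5). KRT81, the first measured gene beyond KRT7 in 786O at 33727 bases, fell with KRT7 there (−2.11). It was also higher in CAKi-1, as KRT7 was, but at under 1 TPM (0.44).

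Apart from the 5 genes, 9 keratins were measured in CAKi-1 and 13 in 786O, most of them under 1 TPM. The 13 count the pseudogene KRT223P. In CAKi-1 by adjusted p alone 1 passed as higher and 3 as lower, none of them past the fold threshold, with a median log2 fold change of −0.03, and over all genes 17.9% and 21.1% passed and the median was −0.01. In 786O 5 passed as higher and 2 as lower, with a median of 0.15, and over all genes 27.5% and 33.5% passed and the median was −0.03. KRT10, a type I keratin best known from the suprabasal epidermis, was the most abundant of them. It was 64.9 ± 2.90 and 69.5 ± 5.64 TPM in CAKi-1 (log2 fold change 0.10, limma adjusted p = 0.286, or 0.0286 after quantile normalization, and a log2 fold change of 0.17 over replicates 2, 3 and 5) and rose in 786O from 76.2 ± 0.972 to 96.2 ± 4.19 TPM (0.33, limma adjusted p = 7.7e-04). KRT81, a type II hair keratin, fell in 786O from 3.55 ± 0.396 to 0.0523 ± 0.0331 TPM (−2.11, limma adjusted p = 3.1e-06) and passed as higher in CAKi-1 at under 1 TPM (0.44, limma adjusted p = 0.00413). The pseudogene KRT223P rose in 786O from 2.53 ± 0.0344 to 18.2 ± 0.597 TPM (2.44, limma adjusted p = 2.4e-07). KRT33B and KRT222 passed as lower in CAKi-1 (−0.95, limma adjusted p = 2.3e-04, and −0.60, limma adjusted p = 6.8e-04), and KRT79 as lower in 786O (−0.70, limma adjusted p = 8.0e-05). The 5 simple epithelial keratins made up 90.5% ± 1.94 of keratin TPM in CAKi-1 A4KO libraries (91.8% ± 0.795 over replicates 2, 3 and 5) and 86.3% ± 0.467 in 786O A4KO libraries, below the WT shares in each line. Keratin TPM of 786O include KRT223P in these shares.

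Keratin filaments are anchored at desmosomes and hemidesmosomes by plakins and catenins, and these genes were measured beside them. Of 22 genes of this kind, 19 were measured in CAKi-1, where 2 passed the adjusted p as higher and 8 as lower, 1 in each direction past the fold threshold, with a median of −0.18. Of all genes in that line 17.9% passed as higher and 21.1% as lower, and 2.21% and 1.12% were called. In 786O 18 were measured, 4 passed as higher and 7 as lower, of which 2 and 1 were called, with a median of −0.04, where 27.5% and 33.5% of all genes passed and 2.43% and 5.19% were called. JUP, which encodes plakoglobin, was called higher in both lines while KRT8 and KRT18 were lower. It went from 24.4 ± 11.8 to 117 ± 46.6 TPM in CAKi-1 (log2 fold change 2.23, SE 0.339, limma adjusted p = 9.7e-04), and from 1.68 ± 0.182 to 6.64 ± 0.283 TPM in 786O (1.51, SE 0.0609, limma adjusted p = 6.0e-06). DSP, the desmoplakin that binds keratins directly, was 7.05 and 4.85 TPM in CAKi-1 (−0.46, limma adjusted p = 0.00138) and rose in 786O from 0.0754 to 0.734 TPM (0.69, limma adjusted p = 4.0e-04). PKP2, a plakophilin, fell in CAKi-1 (−0.83, limma adjusted p = 1.4e-04) and rose in 786O (2.42, limma adjusted p = 3.0e-06), and the desmosomal cadherin DSC2 fell in 786O (−2.37, limma adjusted p = 1.9e-06). COL17A1, a hemidesmosomal collagen, was called lower in CAKi-1 (−1.09, limma adjusted p = 2.5e-04), and without A4KO replicates 1 and 4 its log2 fold change was −0.98, short of the threshold.

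Of 16 genes of other intermediate filaments, 13 were measured in CAKi-1, where 3 passed as lower (21.1% of all genes) and none past the fold threshold. In 786O 12 were measured, 1 passed as higher and 4 as lower (27.5% and 33.5% of all genes), and 2 were called lower (5.19% of all genes). Vimentin (VIM), the filament of mesenchymal cells that many renal carcinoma lines carry beside keratins, was more abundant than any keratin in both lines. It fell from 3220 to 2287 TPM in CAKi-1 (−0.50, limma adjusted p = 9.7e-04) and from 4508 to 3425 TPM in 786O (−0.40, limma adjusted p = 1.5e-04). SYNC, encoding syncoilin, and NEFL, the light neurofilament chain, were the genes called lower in 786O (−1.28, limma adjusted p = 4.5e-06, and −1.06, limma adjusted p = 3.2e-06).

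Proteins that bind or modify keratins were measured through 14 genes, all listed in both tables. In CAKi-1 1 passed as higher and 8 as lower, with a median of −0.32, and in 786O 6 passed in each direction, with a median of −0.0012. The shares of all genes that passed as higher and as lower were 17.9% and 21.1% in CAKi-1 and 27.5% and 33.5% in 786O. PADI2, an enzyme that converts arginine to citrulline in proteins, fell in CAKi-1 from 51.6 ± 12.9 to 4.98 ± 0.405 TPM (−3.11, limma adjusted p = 2.0e-06). TGM2, a transglutaminase that crosslinks proteins, rose in CAKi-1 (2.58, limma adjusted p = 3.4e-06) and fell in 786O (−1.45, limma adjusted p = 1.5e-06). SFN, a 14-3-3 protein of epithelia, was called lower in CAKi-1 (−1.13, limma adjusted p = 0.00499), with −0.84 without replicates 1 and 4, and rose in 786O (1.45, limma adjusted p = 1.7e-04). PRKCE, a protein kinase C, rose in 786O (1.26, limma adjusted p = 2.0e-05).

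Transcription factors of epithelial genes and their repressors formed a list of 30, of which 25 were measured in CAKi-1 and 19 in 786O. In CAKi-1 6 passed as higher and 4 as lower, with 1 call in each direction, beside 17.9% and 21.1% of all genes passed and 2.21% and 1.12% called. SNAI2, a repressor of epithelial genes, rose from 1.44 ± 0.112 to 6.76 ± 0.653 TPM (1.67, limma adjusted p = 1.1e-06), and FOSL1, a subunit of AP-1, fell from 302 ± 17.3 to 107 ± 51.2 TPM (−1.64, limma adjusted p = 0.00512), with −1.09 over replicates 2, 3 and 5. In 786O 6 passed as higher and 9 as lower, beside 27.5% and 33.5% of all genes, with 5 called lower, beside 5.19%. Among these, GATA3 fell from 4.35 ± 0.806 to 0.0584 ± 0.0441 TPM (−2.33, limma adjusted p = 1.1e-05), as did FOXA2 (−1.76, limma adjusted p = 1.7e-06) and TFAP2C (−1.55, limma adjusted p = 4.1e-06). SNAI2 in 786O stood near 28.8 TPM in WT and 28.4 TPM in A4KO cells (−0.02, limma adjusted p = 0.711), with the sign reversed under quantile normalization.

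Of 20 further genes of the epithelial surface and junctions, 18 were measured in CAKi-1, where 3 passed as higher and 8 as lower, and 17 in 786O, where 8 passed as higher and 7 as lower. Of all genes, 17.9% and 21.1% passed in CAKi-1 and 27.5% and 33.5% in 786O. Called were 2 higher and 1 lower in CAKi-1, beside 2.21% and 1.12% of all genes, and 2 higher and 5 lower in 786O, beside 2.43% and 5.19%. Among the claudins, which seal tight junctions, CLDN1 and CLDN4 went opposite ways in the lines, a difference that was not tested. CLDN1 rose in CAKi-1 (1.56, limma adjusted p = 0.00446) and fell in 786O (−1.67, limma adjusted p = 1.2e-06), while CLDN4 fell in CAKi-1 (−1.07, limma adjusted p = 1.7e-04) and rose in 786O (2.18, limma adjusted p = 3.6e-07). EPCAM, an adhesion molecule used with keratins to recognise carcinoma cells, fell in CAKi-1 (−0.47, limma adjusted p = 0.00294) and in 786O (−2.16, limma adjusted p = 3.9e-07). SPINT1, an inhibitor of membrane serine proteases, rose in both lines (0.80, limma adjusted p = 0.00608, and 2.14, limma adjusted p = 9.1e-07). CLDN3 was called higher in CAKi-1 (1.08, limma adjusted p = 0.00812), with 0.70 without replicates 1 and 4. Of the stratified epithelium genes, FLG, encoding filaggrin, was called higher in 786O (1.19, limma adjusted p = 4.2e-06).

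**Figure D4:**
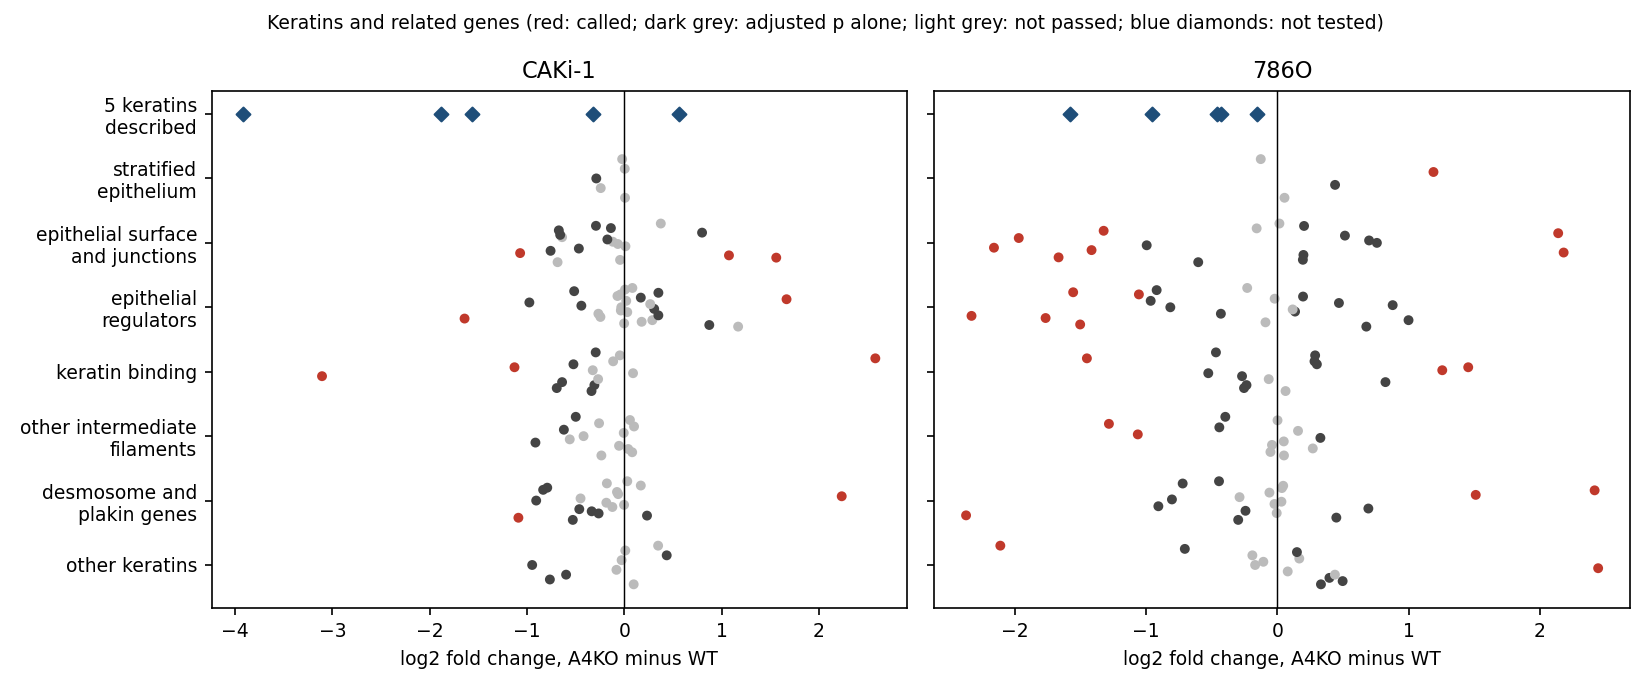
Log2 fold change of A4KO minus WT for every measured gene of each list (points; red, called; dark grey, adjusted p of at most 0.05 alone; light grey, not passed) and for the 5 keratins described (blue diamonds, no test), in CAKi-1 and 786O. The medians of the lists lie between −0.32 and 0.02 in CAKi-1 and between −0.23 and 0.25 in 786O, and red points lie on both sides of 0 in each line. The keratins are drawn for orientation, since they were chosen with these values known.

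Markers of other cell types were also summed in each library, and some moved with the groups. Of 6 leukocyte markers CD3E was listed in neither table, and the sum was 56.5 to 60.1 TPM in CAKi-1 WT and 50.3 to 60.8 TPM in A4KO libraries, and 42.9 to 44.5 and 20.3 to 21.7 TPM in 786O, nearly all of it CD68. The 5 fibroblast and pericyte markers summed to 24.2 to 34.0 TPM in CAKi-1 WT and 48.4 to 72.5 TPM in A4KO libraries, without overlap, and the 4 of them listed in 786O to 10.2 to 14.2 and 8.92 to 11.4 TPM. COL1A1 carried the higher sum in CAKi-1, at 10.2 ± 1.15 TPM in WT and 36.2 ± 5.63 TPM in A4KO libraries (log2 fold change 1.72, limma adjusted p = 1.4e-05). LUM went the other way in CAKi-1, from 3.63 ± 0.430 to 1.58 ± 0.432 TPM (−0.85, limma adjusted p = 6.4e-04). PDGFRB, PDGFRA and DCN did not pass there. In 786O the sum held calls in opposite directions, PDGFRB from 0.407 ± 0.0732 to 4.69 ± 1.11 TPM (1.998, limma adjusted p = 5.8e-05) and LUM from 7.93 ± 1.21 to 1.28 ± 0.125 TPM (−1.96, limma adjusted p = 1.8e-05). Of 4 endothelial markers PECAM1 alone was listed, at 0.209 to 0.555 TPM in CAKi-1 WT, 1.54 to 6.17 TPM in CAKi-1 A4KO, 0.850 to 1.44 TPM in 786O WT and 0.411 to 0.563 TPM in 786O A4KO libraries. The part of these markers in the keratin differences was not tested.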

How the data were processed

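Poly(A) RNA was sequenced from 15 libraries of 2 established ccRCC cell lines. Per the labels and the study's methods, the authors pseudoaligned reads with Kallisto to hg38 and used limma. The deposited tables, 1 per line, hold gene-level TPM. The unit was inferred from the values, since each library sums to between 961437 and 973887. No value is exactly 0. The study's methods state a nominal number of reads per sample, but not the count obtained in each library, so no counting interval can be given.

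Within each line limma 3.58.1 (R 4.3.3) was fitted to log2(TPM + 1) of all genes, two-sided, with no filter on low values and Benjamini-Hochberg adjustment. It was checked on simulated data. Fold changes on this scale understate those of low genes, and TPM are relative, so that a few abundant genes can shift the rest. The members and gene lists were chosen with earlier results of these data known. Named were the 5 members, ANGPTL4, other keratins with at least 1 TPM in a group, up to 3 called genes per list and line with the largest non-overlapping change, the 3 genes most like each member, and the nearest measured neighbours. DSP and VIM were named after their values were seen. Replicates left out, another pseudocount, a filter, quantile normalization, moderated variances with a trend, a replicate block and A4KO replicates 2, 3 and 5 alone were tried.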

Additional observations from a re-analysis of the deposited data

Results flagged for a closer look

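In 4 of 116 groups of 4 or 5 libraries examined 1 library lay far from the others, where chance alone flags about 1 in 20. These were AP1S3 in CAKi-1 WT replicate 1 (24.2 TPM, the others 18.1 to 18.8 TPM), EIF1 in CAKi-1 WT replicate 4 (915 TPM, the others 816 to 830 TPM), DSP in CAKi-1 WT replicate 4 (6.23 TPM, the others 7.27 to 7.40 TPM) and LTB4R2 in CAKi-1 A4KO replicate 1 (2.76 TPM, the others 1.76 to 2.01 TPM). None was a keratin.

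For 18 of 54 named genes listed in both tables, every A4KO library lay on one side of the WT libraries in CAKi-1 and on the opposite side in 786O. Among the 15247 genes listed in both, 2455 or 16.1% did so, and many of the named genes were chosen for large changes without overlap. The difference between the lines was not tested for any of them. KRT7 was the 1 simple epithelial keratin among them, with a log2 fold change of 0.56 in CAKi-1 and −0.96 in 786O, a difference (CAKi-1 minus 786O) of 1.52. The difference was −1.16 for KRT15 and 2.54 for KRT81. Among the filament anchors it was −1.54 for COL17A1, −3.25 for PKP2, 2.60 for DSC2 and −1.16 for DSP, and among genes that bind or modify keratins 4.03 for TGM2 and −2.58 for SFN. It was 3.23 for CLDN1, −3.25 for CLDN4, 2.11 for FOXA2 and −1.48 for FLG, and among markers of cell types 3.16 for CDH6 and 2.01 for PECAM1. Of the genes most like KRT7 in pattern, which were chosen for that likeness, it was 1.43 for LTB4R2, 1.25 for ECH1 and 1.68 for RAB3D.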

How the results depend on the processing

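The log2 fold changes of the 5 keratins kept their sign under every alternative run. Leaving out 1 library at a time gave KRT19 between −4.03 and −3.80 in CAKi-1 and between −1.59 and −1.56 in 786O, KRT8 between −1.997 and −1.724 and between −0.48 and −0.44, KRT18 between −1.69 and −1.43 and between −0.18 and −0.13, KRT7 between 0.43 and 0.65 and between −0.996 and −0.914, and KRT80 between −0.40 and −0.26 and between −0.45 and −0.40. KRT7 in 786O was −1.31 with a pseudocount of 0.1 and −0.74 after quantile normalization, and the type II to type I ratio in 786O A4KO cells was 1.77 after quantile normalization.

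Genes called in CAKi-1 numbered 543, and 1077 with a pseudocount of 0.1, 6348 by adjusted p alone, 412 over A4KO replicates 2, 3 and 5, and 477 to 608 with 1 library left out. Genes called in 786O numbered 1233, and 2095, 9874 and 1221 to 1243 under the same settings. Quantile normalization in 786O gave 519 higher and 697 lower in place of 393 and 840, or 42.7% higher in place of 31.9%, and moved the median over all genes from −0.03 to 0.02.

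In CAKi-1 the list counts with a pseudocount of 0.1 were 3 other keratins, 1 other filament gene, 5 regulators and 5 surface genes, in place of 0, 0, 2 and 3, while of all 16296 genes 693 were then called higher and 384 lower. By adjusted p alone they were 4 of 9 other keratins, 10 of 19 anchors and 3 of 13 other filament genes. Also passed were 9 of 14 binding genes, 10 of 25 regulators, 11 of 18 surface genes and 1 of 5 stratified genes. Of all genes in CAKi-1 17.9% passed as higher and 21.1% as lower. Other keratins called numbered 1 after quantile normalization and 0 to 1 with 1 library left out. Anchors called numbered 1 with a filter at a mean of 1 TPM, 1 over A4KO replicates 2, 3 and 5, and 1 to 2 with 1 library left out. Regulators called numbered 2 to 5 with 1 library left out, the 5 without WT replicate 4. In 786O there were 6 of 18 anchors with a pseudocount of 0.1, while of all 16188 genes 689 were then called higher and 1406 lower. By adjusted p alone there were 7 of 13 other keratins, 11 of 18 anchors and 5 of 12 other filament genes. In addition 12 of 14 binding genes, 15 of 19 regulators, 15 of 17 surface genes and 2 of 4 stratified genes passed. Of all genes in 786O 27.5% passed as higher and 33.5% as lower. The causes of these moves were not tested.

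Samples share replicate numbers across groups, but same-numbered libraries did not all deviate together (correlations −0.061, 0.121, −0.035 and 0.134 in CAKi-1 and −0.046, 0.018 and 0.006 in 786O). With the number as a replicate block, genes called numbered 603 in CAKi-1 and 1233 in 786O, and regulators called in CAKi-1 numbered 4. A4KO replicate 5 has no WT partner and adds nothing to this fit, and leaving it out without a block also gave 603.

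Of 655 alternatives of the other named genes, 624 stayed on their side of the adjusted p threshold, 9 passed it, 14 lost it and 8 changed sign. The losses include 3 genes whose groups lay apart in opposite directions in the lines, DSC2 in CAKi-1 (adjusted p = 0.0603 by limma with the replicate block, up to 0.0652 without WT replicate 2 or 4), FLG in CAKi-1 (0.0735 with the block, up to 0.0506 without WT replicate 2 or 3) and COL17A1 in 786O (up to 0.121 without WT replicate 1 or 2 or A4KO replicate 2). Those that changed sign were near 0, namely TFAP2C in CAKi-1 (0.0206 over A4KO replicates 2, 3 and 5), CD68 in CAKi-1 (0.00479 after quantile normalization), ATG101 in CAKi-1 (0.0616 after quantile normalization, 0.101 over replicates 2, 3 and 5, 0.0101 without A4KO replicate 1, −0.109 to 0.0166 over all left-out libraries), SNAI2 in 786O (0.0138 after quantile normalization) and EIF1 in 786O (0.0376 after quantile normalization, 0.00828 without A4KO replicate 2, −0.0263 to 0.0088 over all left-out libraries).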
